A study of Mus musculus with 12 samples.

Results

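Translation initiation factors load the first tRNA onto the small ribosomal subunit, bring that subunit to the capped end of an mRNA, unwind the leader and release themselves when the start codon is found. eIF2 carries the initiator tRNA and needs eIF2B to exchange its nucleotide. eIF3 is a many-subunit scaffold on the small subunit, and eIF4F joins the cap-binding protein eIF4E to the scaffold eIF4G and the helicase eIF4A. The 4E-binding proteins block that assembly until the kinase mTOR phosphorylates them. MYC is known for raising the expression of the translation machinery in lymphocytes. The genes described here are those whose symbol in the platform annotation begins with Eif and a digit from 1 to 6, leaving out the eIF2 kinases (symbols beginning Eif2ak). The rule picked the genes by name only, and used measured values for the choice of probe set. It found 45 genes of the 19309 genes that had a probe set with 1 symbol, through 52 such probe sets. For each gene the probe set with the highest mean over the 12 arrays was used. Eif1, Eif2s1, Eif3g and Eif4g1 were not analysed here, and Eif3j and Eif4ebp3 were measured only by probe sets with several symbols.

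RNA came from the thymus of mice of the FVB/N background and was hybridised to 12 single-colour arrays. The 3 normal samples were non-tumor thymocytes of wild-type genotype, aged 24 dpn as the labels write it. The 5 control tumors have the genotype label wild type and the age label Terminal, and their own labels do not name MYC. The 4 deficient tumors are labelled Dnmt3a-deficient and Terminal: the gene of this DNA methyltransferase had been removed from blood-forming cells of mice carrying MYC, which then developed T-cell lymphoma. The sources used here do not give the promoter behind MYC, the Cre line or any pooling of animals. Age and tumor state differ together between normal and tumor samples and cannot be told apart. No label says that the samples of a group came from separate animals, so a p-value here reflects only how far these arrays spread, which may be technical.

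Values are log2 expression, so a difference of 1 is a doubling, and each difference carries its standard error from limma as ±. A gene was called, and is said to have risen or fallen, at an adjusted p under 0.05 over all 19309 genes. Both tumor comparisons use the same 3 normal arrays. Dnmt3a itself read 9.33 to 9.63 on normal arrays, 8.19 to 9.57 in control tumors and 7.19 to 7.62 in deficient tumors, lowest in the tumors labelled deficient. Myc read 9.43 to 9.86 on normal arrays and 5.99 to 7.49 in tumors. Which parts of either gene the probe sets cover, and whether the Myc set reads introduced MYC, was not analysed here. The mean of 10 T-lineage markers was 11.9 on each normal array, 10.4 to 11.2 in control tumors and 10.2 to 10.9 in deficient tumors. Of the 10, 5 fell in control tumors and 6 in deficient tumors, beside 11.3% and 19.0% of all genes. The mean of 7 neutrophil markers was 6.75 to 7.10 on normal arrays, 5.88 to 8.49 in control tumors and 5.57 to 6.12 in deficient tumors. All 7 read highest in control tumors 3 and 4. The mean of 4 adipocyte markers was 5.11 to 5.20 on normal arrays, 4.9 to 8.18 in control tumors and 5.08 to 5.43 in deficient tumors. All 4 read highest in control tumor 2. The mean of 8 macrophage markers was 6.69 to 7.01 on normal arrays, 6.06 to 8.17 in control tumors and 7.07 to 7.98 in deficient tumors. In deficient tumors it was above every normal array. There 1 of the 8, Adgre1, rose (0.86 ± 0.27, adjusted p = 0.022 by limma), beside 18.7% of all genes. The part of such cells in the results was not tested, and in bulk RNA fewer cells of a type cannot be told apart from less RNA per cell. The 75th percentile of the array was 8.13 to 8.30 on normal arrays and control tumors 3, 4 and 5, and 8.50 to 8.60 in control tumors 1 and 2 and every deficient tumor. Over all genes, control tumors 1 and 2 correlated more closely with the deficient tumors (mean r 0.972 and 0.971) than with the other control tumors (0.956 and 0.951).

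Most initiation factor genes were higher in the tumors than in normal thymocytes. In control tumors 24 of the 45 rose and 2 fell, where 13.0% of all genes rose and 11.3% fell. In deficient tumors 27 rose and 5 fell, against 18.7% and 19.0% of all genes. The increase was at least 2-fold for 12 genes in control tumors and for 19 in deficient tumors, and the decrease for 1 and 3. The share of all genes at that fold was not counted. The median difference of the 45 genes was 0.55 in control tumors and 0.67 in deficient tumors, beside -0.08 and -0.10 over all genes. Of the 45, 24 were called higher in both tumor groups, 2 lower in both and 13 in neither. How many of all genes were called in both was not counted. Bringing the arrays to a common 75th percentile moved the median of all genes to -0.29 and -0.49 and that of the 45 genes to 0.33 and 0.28. At that scaling the control tumors had 19 of the 45 genes called higher and 4 lower, beside 10.3% and 22.9% of all genes. The deficient tumors had 20 called higher and 9 lower, beside 13.3% and 48.0% of all genes.

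**Figure D1:**
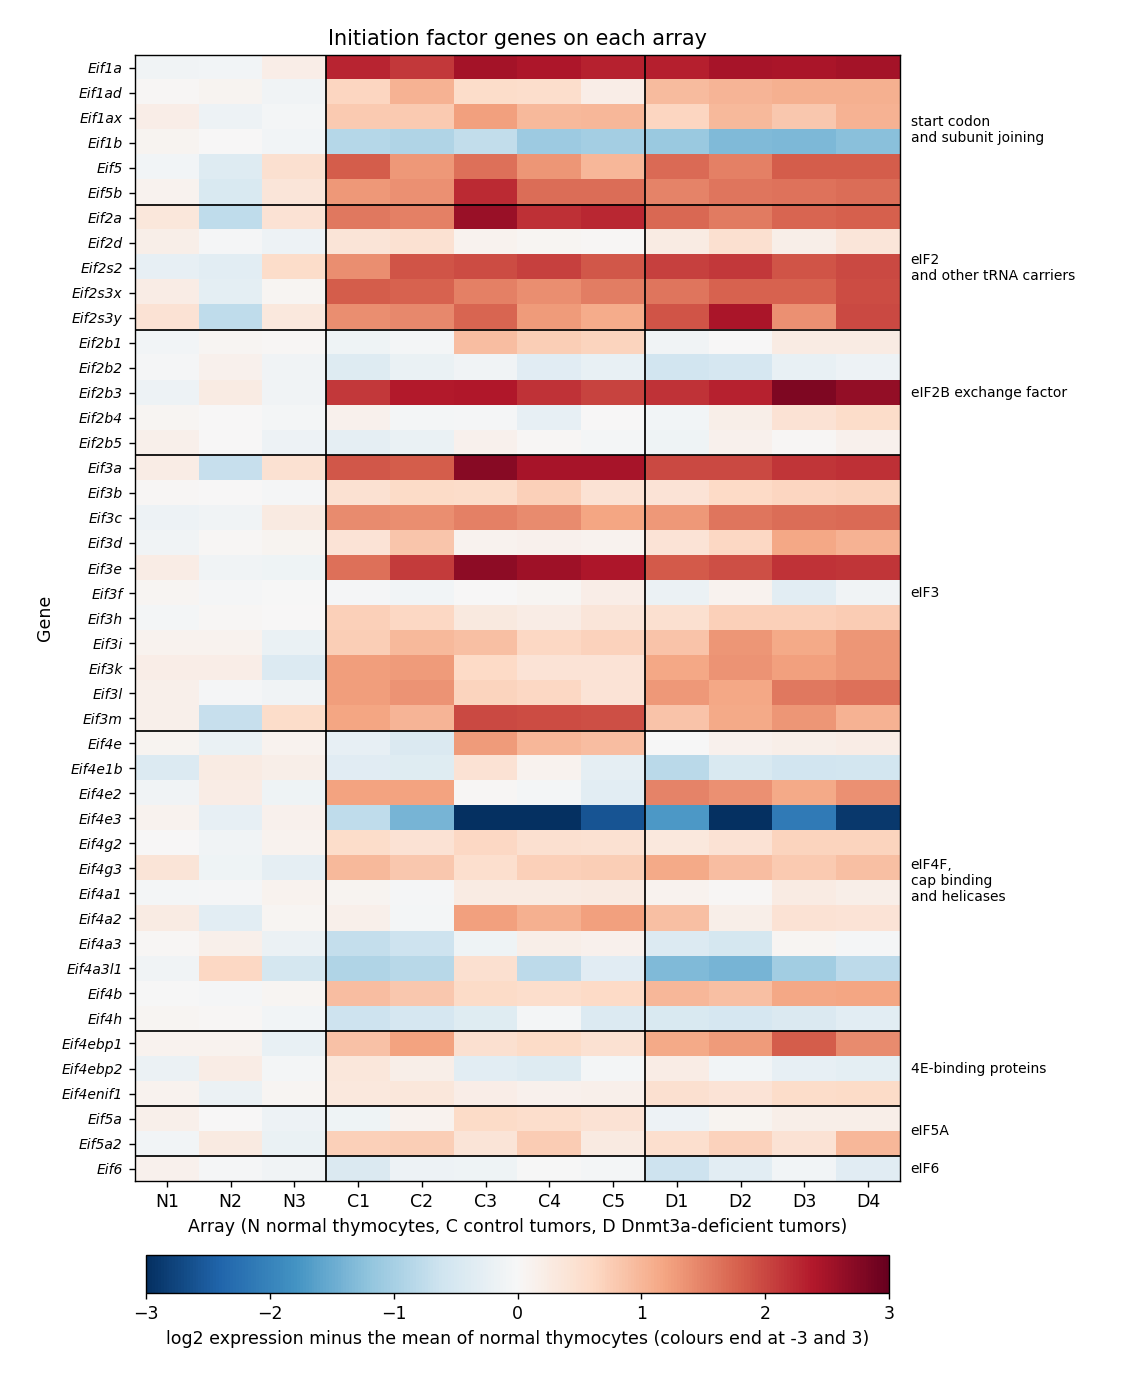
Log2 expression of the 45 genes on each array minus the mean of the 3 normal arrays; columns are the 12 arrays, rows the genes by role, and colours end at -3 and 3. Rows of eIF2, eIF3 and the start codon factors are mostly red in both tumor groups, while Eif4e3 and Eif1b are blue, and control tumors 1 and 2 often resemble the deficient tumors.

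Of the 6 genes whose factors find the start codon and join the subunits, 5 rose and 1 fell in both tumor groups. Their median difference was 1.19 in control tumors and 1.31 in deficient tumors. Beside this and the counts by role below, 13.0% of all genes rose and 11.3% fell in control tumors. In deficient tumors these shares were 18.7% and 19.0%. Eif1a encodes eIF1A, which holds the small subunit open for scanning. Eif1a read 6.96, 6.97 and 7.26 on normal arrays 1 to 3, 9.34, 9.17, 9.55, 9.48 and 9.36 in control tumors 1 to 5, and 9.38, 9.54, 9.50 and 9.56 in deficient tumors 1 to 4. All 9 tumor arrays lay above the 3 normal arrays by a wide gap. The difference was 2.32 ± 0.13 in control tumors and 2.43 ± 0.14 in deficient tumors (adjusted p = 5.41e-07 and 3.01e-07), that is 4.99-fold and 5.40-fold. Its relative Eif1ax rose by 0.96 ± 0.15 and 0.87 ± 0.16, and 4 probe sets that Eif1a shares with near-identical gene models differed by 1.17 to 1.78 between control tumors and normal arrays, all called. How far such sequences share signal was not tested.

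Eif5 and Eif5b serve the last steps of initiation. Eif5 encodes the protein that triggers GTP hydrolysis on eIF2. Eif5 read 9.02, 8.71 and 9.59 on normal arrays 1 to 3, 10.93, 10.40, 10.75, 10.43 and 10.11 in control tumors 1 to 5, and 10.80, 10.62, 10.91 and 10.93 in deficient tumors 1 to 4. All 9 tumor arrays lay above the 3 normal arrays, with the lowest tumor value in control tumor 5. The increase was 1.42 ± 0.21 in control tumors and 1.71 ± 0.22 in deficient tumors (adjusted p = 0.000314 and 6.89e-05). Eif5b encodes the GTPase that joins the large subunit. Eif5b read 7.24, 6.68 and 7.52 on normal arrays 1 to 3, 8.44, 8.52, 9.39, 8.82 and 8.83 in control tumors 1 to 5, and 8.63, 8.75, 8.77 and 8.83 in deficient tumors 1 to 4. Tumor and normal arrays did not overlap. The difference was 1.65 ± 0.22 in control tumors and 1.59 ± 0.23 in deficient tumors (adjusted p = 0.000131 and 0.000159). Eif1ad, whose product carries an eIF1A-like domain, rose by 0.59 ± 0.16 and 1.02 ± 0.17.

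Eif1b was the exception in this group. It encodes a close relative of eIF1, the factor that guards start codon accuracy. Eif1b read 10.64, 10.57 and 10.48 on normal arrays 1 to 3, 9.70, 9.67, 9.82, 9.46 and 9.55 in control tumors 1 to 5, and 9.45, 9.25, 9.21 and 9.30 in deficient tumors 1 to 4. Every tumor array lay below every normal array, and the deficient tumors lay below all control tumors. The difference was -0.92 ± 0.13 in control tumors and -1.26 ± 0.13 in deficient tumors (adjusted p = 0.000146 and 1.24e-05), or 1.89-fold and 2.39-fold lower.

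The carriers of the initiator tRNA were higher in both tumor groups for 4 of 5 genes, each at least 2-fold. Eif2s2 encodes the beta subunit of eIF2. Eif2s2 read 6.83, 6.75 and 7.62 on normal arrays 1 to 3, 8.47, 8.96, 9.02, 9.12 and 8.92 in control tumors 1 to 5, and 9.11, 9.19, 8.94 and 9.05 in deficient tumors 1 to 4. Every tumor exceeded every normal array. It rose by 1.83 ± 0.20 in control tumors and 2.01 ± 0.21 in deficient tumors (adjusted p = 3.09e-05 and 1.36e-05), and its other probe set differed by 3.24 and 3.46, called in a fit over all probe sets. Eif2a encodes eIF2A, a separate protein that can deliver the initiator tRNA under special conditions. Eif2a read 8.18, 7.08 and 8.27 on normal arrays 1 to 3, 9.44, 9.35, 10.43, 10.04 and 10.11 in control tumors 1 to 5, and 9.56, 9.39, 9.58 and 9.64 in deficient tumors 1 to 4. The lowest value by far was that of normal array 2. The increase was 2.03 ± 0.29 in control tumors and 1.70 ± 0.30 in deficient tumors (adjusted p = 0.000196 and 0.000701). Eif2d, an alternative carrier, was not called: 0.21 ± 0.15 in control tumors and 0.31 ± 0.15 in deficient tumors (adjusted p = 0.34 and 0.127).

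The gamma subunit of eIF2, which holds the tRNA and GTP, is encoded by an X-linked and a Y-linked copy. Eif2s3x read 9.95, 9.44 and 9.79 on normal arrays 1 to 3, 11.56, 11.49, 11.23, 11.12 and 11.26 in control tumors 1 to 5, and 11.35, 11.49, 11.50 and 11.70 in deficient tumors 1 to 4. No tumor value reached down to the normal values. The X-linked copy rose by 1.60 ± 0.16 in control tumors and 1.78 ± 0.16 in deficient tumors (adjusted p = 1.23e-05 and 4.7e-06). Eif2s3y read 8.38, 7.19 and 8.26 on normal arrays 1 to 3, 9.34, 9.39, 9.69, 9.21 and 9.06 in control tumors 1 to 5, and 9.82, 10.39, 9.32 and 9.93 in deficient tumors 1 to 4. Deficient tumor 2 was highest and normal array 2 lowest. The Y-linked copy rose by 1.40 ± 0.28 in control tumors and 1.92 ± 0.29 in deficient tumors (adjusted p = 0.00247 and 0.000227). Other Y-linked genes moved the same way: Kdm5d read 6.20 to 7.06 on normal arrays and 7.24 to 9.06 in tumors, and Uty 6.43 to 7.32 and 7.64 to 9.15. Xist stayed between 3.90 and 5.10 on all 12 arrays.

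Of the 5 subunit genes of eIF2B, which recharges eIF2 with GTP, 1 rose in both tumor groups. As 13.0% of all genes rose in control tumors and 18.7% in deficient tumors, nothing is read from this count. Eif2b3 encodes the gamma subunit, which forms the catalytic part together with the epsilon subunit. Eif2b3 read 7.34, 7.74 and 7.38 on normal arrays 1 to 3, 9.61, 9.87, 9.90, 9.65 and 9.51 in control tumors 1 to 5, and 9.65, 9.80, 10.28 and 10.11 in deficient tumors 1 to 4. Normal and tumor arrays were separated by more than 1 log2 unit. It rose by 2.22 ± 0.17 in control tumors and 2.47 ± 0.18 in deficient tumors (adjusted p = 2.71e-06 and 1.03e-06), or 4.65-fold and 5.55-fold. Eif2b5 encodes the catalytic epsilon subunit. Eif2b5 read 9.62, 9.47 and 9.32 on normal arrays 1 to 3, 9.20, 9.26, 9.60, 9.51 and 9.41 in control tumors 1 to 5, and 9.34, 9.60, 9.50 and 9.59 in deficient tumors 1 to 4. The 3 groups overlapped. The difference was -0.07 ± 0.14 in control tumors and 0.04 ± 0.14 in deficient tumors (adjusted p = 0.741 and 0.856). Eif2b1, Eif2b2 and Eif2b4 were not called either, with differences from -0.36 to 0.43 over both comparisons.

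eIF3 rose in most of its measured subunits: 9 of 11 in control tumors and 10 of 11 in deficient tumors, with medians of 0.79 and 1.16. Eif3a encodes the largest subunit, the core of the scaffold. Eif3a read 8.53, 7.62 and 8.77 on normal arrays 1 to 3, 10.16, 10.11, 11.03, 10.78 and 10.77 in control tumors 1 to 5, and 10.28, 10.29, 10.46 and 10.51 in deficient tumors 1 to 4. All 9 tumor arrays lay above the 3 normal arrays, and control tumors 3, 4 and 5 were highest. It rose by 2.27 ± 0.26 in control tumors and 2.08 ± 0.28 in deficient tumors (adjusted p = 4.35e-05 and 7.82e-05). Eif3e encodes a subunit that contacts eIF4G. Eif3e read 8.59, 8.27 and 8.25 on normal arrays 1 to 3, 10.01, 10.47, 11.06, 10.91 and 10.80 in control tumors 1 to 5, and 10.20, 10.31, 10.54 and 10.51 in deficient tumors 1 to 4. The ranges of normal and tumor arrays were more than 1 log2 unit apart. Its increase was 2.28 ± 0.21 in control tumors and 2.02 ± 0.22 in deficient tumors (adjusted p = 8.71e-06 and 1.81e-05).

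Eif3c, another core subunit, and Eif3m, a peripheral one, also rose. Eif3c read 9.62, 9.68 and 10.05 on normal arrays 1 to 3, 11.21, 11.18, 11.28, 11.21 and 10.97 in control tumors 1 to 5, and 11.08, 11.39, 11.45 and 11.47 in deficient tumors 1 to 4. The tumor arrays were close together and above all normal arrays. The increase was 1.39 ± 0.15 in control tumors and 1.57 ± 0.15 in deficient tumors (adjusted p = 2.15e-05 and 7.2e-06). Eif3m read 8.65, 7.81 and 9.04 on normal arrays 1 to 3, 9.68, 9.53, 10.47, 10.45 and 10.43 in control tumors 1 to 5, and 9.36, 9.64, 9.82 and 9.54 in deficient tumors 1 to 4. Normal array 2 was low, and control tumors 3, 4 and 5 were higher than every deficient tumor. Eif3m rose by 1.61 ± 0.29 in control tumors and 1.09 ± 0.30 in deficient tumors (adjusted p = 0.00108 and 0.0122), and its other probe set differed by 1.82 and 1.42. A pair of probe sets shared by Eif3j1 and Eif3j2, copies of the loosely bound j subunit gene, differed by 2.44 and 2.38 in control tumors and by 2.68 each in deficient tumors.

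Other eIF3 genes are given by their range. Eif3b, Eif3h, Eif3i, Eif3k and Eif3l rose by 0.44 to 0.86 in control tumors and by 0.59 to 1.43 in deficient tumors. Eif3d, whose product can itself bind the cap of some mRNAs, was 0.32 ± 0.21 in control tumors and 0.81 ± 0.22 in deficient tumors (adjusted p = 0.302 and 0.0102). Eif3f was the single subunit gene called in neither group: 0.03 ± 0.13 in control tumors and -0.13 ± 0.13 in deficient tumors (adjusted p = 0.904 and 0.482). Across the 11 genes the differences in control tumors ran from 0.03 for Eif3f to 2.28 for Eif3e.

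**Figure D2:**
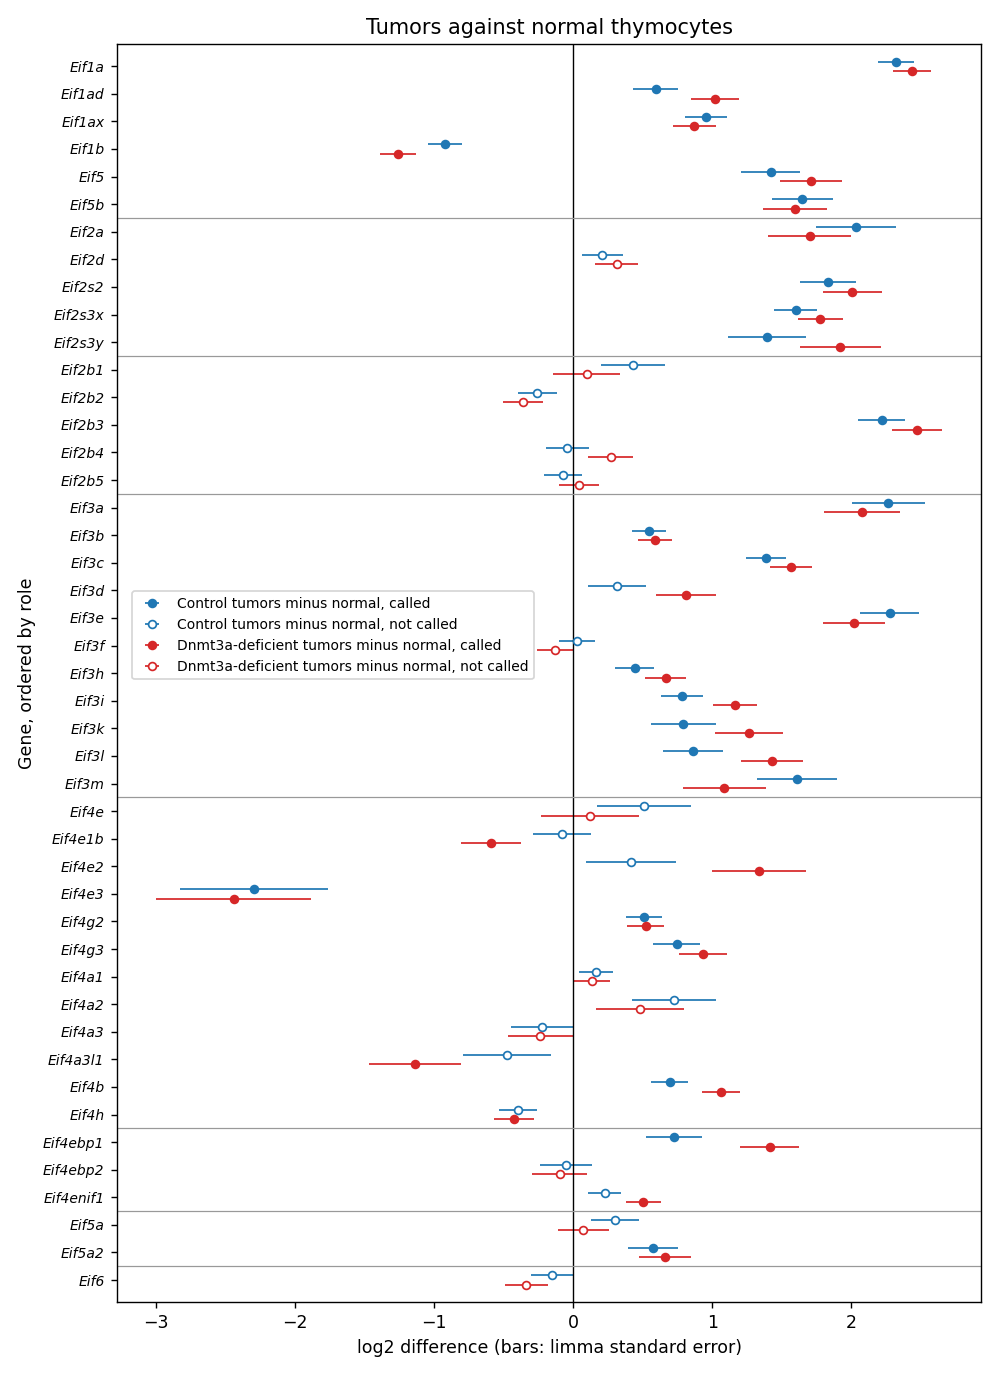
Log2 difference of each gene from normal thymocytes in control tumors (blue, n = 5) and deficient tumors (red, n = 4) with limma standard errors; filled points were called at an adjusted p under 0.05 and open points were not. Points of the start codon, eIF2 and eIF3 genes lie mostly right of 0, up to 2.32 and 2.43 for Eif1a. Those of eIF2B and of the group of eIF4F, cap binding and helicases scatter on both sides.

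The 12 genes of eIF4F, cap binding and helicases include relatives and partners outside eIF4F itself, such as Eif4e2, Eif4a3 and Eif4h. Of the 12, 3 rose and 1 fell in control tumors, and 4 rose and 4 fell in deficient tumors. The shares of all genes were 13.0% higher and 11.3% lower in control tumors, and 18.7% and 19.0% in deficient tumors. Nothing is read from these small counts about the group. Of the 4 decreases in deficient tumors, 3 lost their call when a single array was left out. These were Eif4e1b in 6 such fits (-0.641 to -0.468), Eif4h in 5 (-0.425 to -0.40) and Eif4a3l1 without normal array 2 (-0.822). The result for Eif4e differed between its 2 probe sets. Eif4e encodes the cap-binding protein whose supply limits assembly of eIF4F. Eif4e read 9.29, 9.01 and 9.32 on normal arrays 1 to 3, 8.97, 8.78, 10.48, 10.21 and 10.14 in control tumors 1 to 5, and 9.19, 9.33, 9.37 and 9.42 in deficient tumors 1 to 4. Control tumors 3, 4 and 5 were above all other arrays, and control tumors 1 and 2 were below all normal arrays. That probe set was not called: 0.51 ± 0.34 in control tumors and 0.12 ± 0.35 in deficient tumors (adjusted p = 0.305 and 0.815), and the second value turned negative under 3 other scalings. The other Eif4e probe set read 7.40, 6.50 and 6.97 on normal arrays 1 to 3, 9.10, 8.82, 8.51, 8.29 and 8.13 in control tumors 1 to 5, and 8.61, 8.71, 8.91 and 8.99 in deficient tumors 1 to 4. All 9 tumor arrays were above the normal arrays there. In a fit over all probe sets the difference was 1.61 ± 0.24 in control tumors and 1.85 ± 0.25 in deficient tumors (adjusted p = 0.000301 and 0.000102). Where in the genome either probe set lies was not analysed here, so which of them follows the Eif4e mRNA was not determined.

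Eif4e3 showed the largest decrease of the 45 genes. It encodes an atypical relative of eIF4E that binds the cap weakly. Eif4e3 read 9.45, 9.08 and 9.47 on normal arrays 1 to 3, 8.57, 7.94, 6.05, 5.90 and 6.73 in control tumors 1 to 5, and 7.60, 6.33, 7.20 and 6.43 in deficient tumors 1 to 4. All tumor arrays lay below the normal arrays, and the control tumors spread over more than 2 log2 units, highest in tumors 1 and 2. It fell, with differences of -2.29 ± 0.53 in control tumors and -2.44 ± 0.56 in deficient tumors (adjusted p = 0.0065 and 0.00406), or 4.90-fold and 5.43-fold lower. Eif4e2 encodes 4EHP, a cap-binding protein that represses translation. Eif4e2 read 8.75, 9.08 and 8.71 on normal arrays 1 to 3, 10.05, 10.05, 8.89, 8.79 and 8.53 in control tumors 1 to 5, and 10.32, 10.22, 9.98 and 10.21 in deficient tumors 1 to 4. Control tumors 1 and 2 lay with the deficient tumors, and control tumors 3, 4 and 5 with the normal arrays. The difference was 0.41 ± 0.32 in control tumors and 1.34 ± 0.34 in deficient tumors (adjusted p = 0.39 and 0.00736), and the direct difference between tumor groups was 0.92 ± 0.30 (adjusted p = 0.128). Eif4e1b, a relative known from oocytes, read 5.59 to 6.82 on all arrays and was -0.08 ± 0.21 in control tumors and -0.59 ± 0.22 in deficient tumors (adjusted p = 0.817 and 0.0456). Its other probe set differed by -0.55 ± 0.23 in control tumors and -1.16 ± 0.25 in deficient tumors in the fit over all probe sets (adjusted p = 0.112 and 0.00272).

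None of the helicase genes Eif4a1, Eif4a2 and Eif4a3 passed the test. Eif4a1 encodes the main helicase of eIF4F. Eif4a1 read 12.38, 12.40 and 12.54 on normal arrays 1 to 3, 12.52, 12.40, 12.68, 12.69 and 12.71 in control tumors 1 to 5, and 12.53, 12.47, 12.68 and 12.61 in deficient tumors 1 to 4. The 3 groups overlapped. Its difference was 0.16 ± 0.12 in control tumors and 0.14 ± 0.13 in deficient tumors (adjusted p = 0.378 and 0.432), and its 3 probe sets were all uncalled. Eif4a2 encodes a second form of the helicase. Eif4a2 read 10.31, 9.74 and 10.13 on normal arrays 1 to 3, 10.22, 10.00, 11.29, 11.12 and 11.29 in control tumors 1 to 5, and 10.96, 10.24, 10.50 and 10.47 in deficient tumors 1 to 4. Control tumors 3, 4 and 5 stood above the rest. The difference was 0.73 ± 0.30 in control tumors and 0.48 ± 0.32 in deficient tumors (adjusted p = 0.102 and 0.249). Eif4a3 belongs to the exon junction complex and was also not called: -0.23 ± 0.23 in control tumors and -0.24 ± 0.24 in deficient tumors (adjusted p = 0.516 and 0.46).

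Eif4b stimulates eIF4A. Eif4b read 10.34, 10.32 and 10.42 on normal arrays 1 to 3, 11.29, 11.17, 10.94, 10.89 and 10.96 in control tumors 1 to 5, and 11.37, 11.25, 11.51 and 11.55 in deficient tumors 1 to 4. Normal and tumor arrays did not overlap. It rose by 0.69 ± 0.13 in control tumors and 1.06 ± 0.14 in deficient tumors (adjusted p = 0.00193 and 7.42e-05). Eif4h, which works at the same step, was -0.40 ± 0.14 in control tumors and -0.43 ± 0.14 in deficient tumors (adjusted p = 0.0518 and 0.0322), past the threshold in deficient tumors. The scaffold Eif4g3 rose by 0.74 ± 0.17 and 0.93 ± 0.17, and Eif4g2, a relative that lacks the eIF4E site, by 0.51 ± 0.13 and 0.52 ± 0.13. Eif4a3l1 read 5.12, 5.85 and 4.70 on normal arrays 1 to 3, 4.32, 4.39, 5.70, 4.45 and 4.88 in control tumors 1 to 5, and 3.91, 3.82, 4.19 and 4.44 in deficient tumors 1 to 4. Signals of this Eif4a3-like gene were low on every array, and the deficient tumors lay below all normal arrays. The difference was -0.48 ± 0.32 in control tumors and -1.14 ± 0.33 in deficient tumors (adjusted p = 0.312 and 0.0167).

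Among the proteins that bind eIF4E, Eif4ebp1 rose and Eif4ebp2 was not called. Eif4ebp1 encodes 4E-BP1, the mTOR-controlled inhibitor of eIF4F. Eif4ebp1 read 8.18, 8.16 and 7.84 on normal arrays 1 to 3, 8.94, 9.26, 8.55, 8.64 and 8.53 in control tumors 1 to 5, and 9.20, 9.34, 9.88 and 9.47 in deficient tumors 1 to 4. All 9 tumor arrays lay above the 3 normal arrays, and the deficient tumors overlapped the control tumors through control tumor 2 alone. It rose by 0.72 ± 0.20 in control tumors and 1.41 ± 0.21 in deficient tumors (adjusted p = 0.0178 and 0.000188). Eif4ebp2 read 9.79, 10.18 and 9.90 on normal arrays 1 to 3, 10.29, 10.12, 9.64, 9.56 and 9.90 in control tumors 1 to 5, and 10.17, 9.88, 9.72 and 9.67 in deficient tumors 1 to 4. No group stood apart. The difference was -0.05 ± 0.19 in control tumors and -0.10 ± 0.20 in deficient tumors (adjusted p = 0.873 and 0.733). Eif4enif1 encodes 4E-T, which takes eIF4E into the nucleus and into cytoplasmic granules. Eif4enif1 read 8.79, 8.49 and 8.75 on normal arrays 1 to 3, 8.99, 9.01, 8.87, 8.81 and 8.84 in control tumors 1 to 5, and 9.16, 9.08, 9.23 and 9.25 in deficient tumors 1 to 4. The deficient tumors lay above every other array. The difference was 0.23 ± 0.12 in control tumors and 0.50 ± 0.13 in deficient tumors (adjusted p = 0.203 and 0.00722). A probe set shared by Ankhd1 and Eif4ebp3 differed by 0.99 and 1.38, both called.

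**Figure D3:**
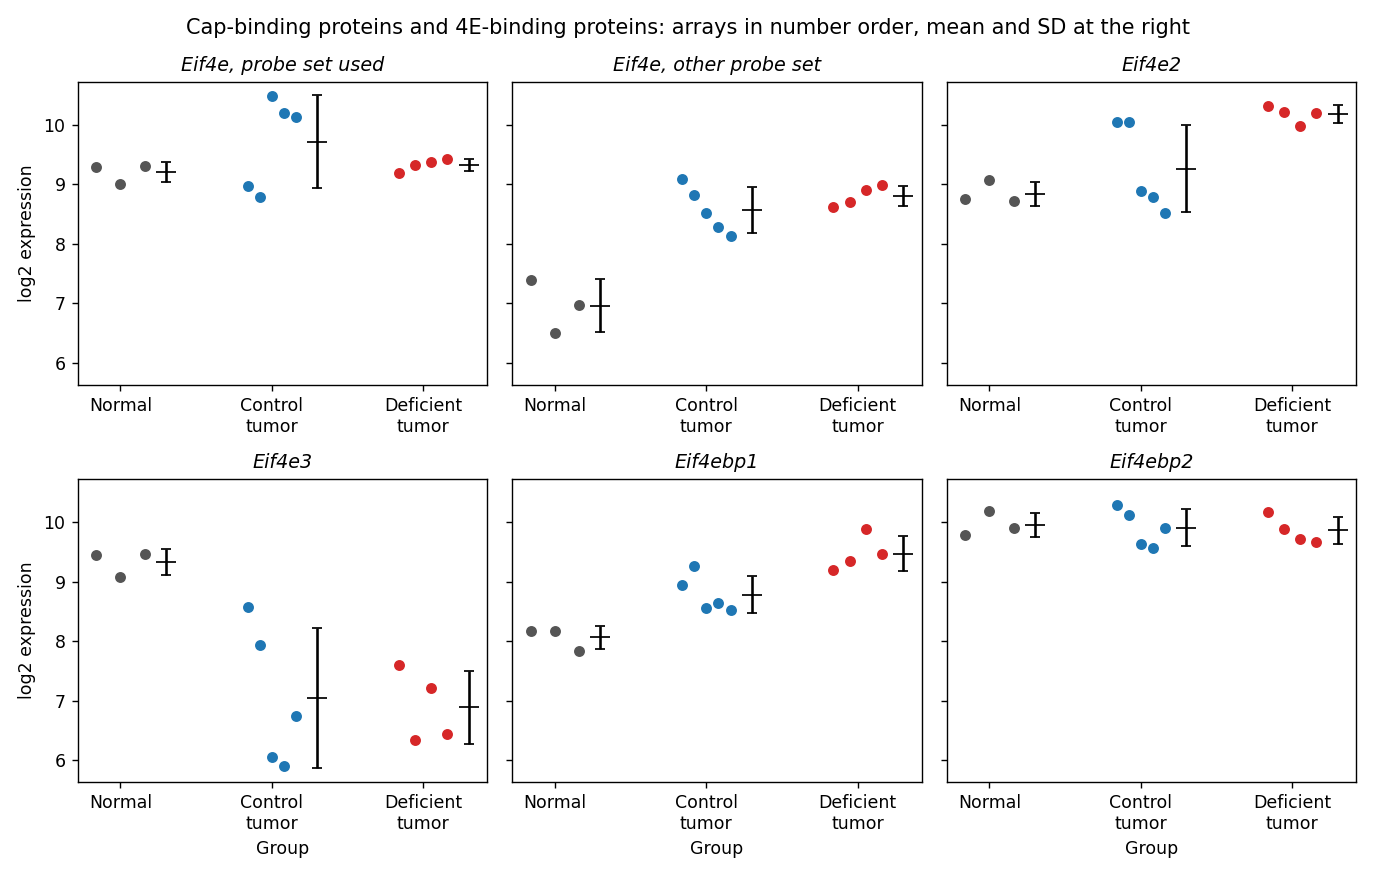
Log2 expression of both Eif4e probe sets, Eif4e2, Eif4e3, Eif4ebp1 and Eif4ebp2; points are arrays in number order within normal thymocytes (grey, n = 3), control tumors (blue, n = 5) and deficient tumors (red, n = 4), with mean and SD at the right. Levels compare within a panel, not between panels; control tumors 1 and 2 read 10.05 for Eif4e2, near the deficient tumors, and 8.97 and 8.78 for the Eif4e probe set used.

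eIF5A, which eases peptide bonds that stall ribosomes and carries the modified residue hypusine, has a common and a restricted form. Eif5a read 12.18, 12.04 and 11.89 on normal arrays 1 to 3, 11.92, 12.14, 12.61, 12.55 and 12.48 in control tumors 1 to 5, and 11.87, 12.13, 12.22 and 12.22 in deficient tumors 1 to 4. The groups overlapped, with control tumors 3, 4 and 5 highest. The difference was 0.30 ± 0.17 in control tumors and 0.07 ± 0.18 in deficient tumors (adjusted p = 0.232 and 0.779). The other Eif5a probe set differed by 0.08 ± 0.17 and -0.18 ± 0.18 in the limma fit over all probe sets (adjusted p = 0.772 and 0.444). Eif5a2 read 6.49, 6.84 and 6.36 on normal arrays 1 to 3, 7.27, 7.30, 6.94, 7.33 and 6.83 in control tumors 1 to 5, and 7.07, 7.26, 6.98 and 7.56 in deficient tumors 1 to 4. This restricted form overlapped slightly between normal array 2 and control tumor 5, and all deficient tumors were above the normal arrays. It rose by 0.57 ± 0.18 in control tumors and 0.66 ± 0.19 in deficient tumors (adjusted p = 0.0329 and 0.0146). Eif6 encodes the factor that keeps the large subunit from joining early. Eif6 read 11.12, 10.95 and 10.89 on normal arrays 1 to 3, 10.56, 10.82, 10.87, 10.97 and 10.93 in control tumors 1 to 5, and 10.36, 10.66, 10.91 and 10.65 in deficient tumors 1 to 4. The lowest values were in tumors and the ranges overlapped. The difference was -0.15 ± 0.15 in control tumors and -0.34 ± 0.16 in deficient tumors (adjusted p = 0.504 and 0.107).

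MYC binds the E-box CACGTG, which reads the same on both strands, so the 250 bases before each gene's start were searched for these letters in RefSeq promoter windows of GRCm38.p6. Of the 45 genes, 35 had a window. At least 1 match was found for 8 of the 35 (22.9%), beside 6.86% of the 27025 symbols with a window. Of the 17 matched genes that rose in both tumor groups 2 held it (Eif3k and Eif5a2). Of the other 18 genes 6 did (Eif1b, Eif3f, Eif4e, Eif4a1, Eif4h and Eif5a), where Eif4e is placed by the probe set used. The other Eif4e probe set differed by 1.61 in control tumors and 1.85 in deficient tumors, both called in the fit over all probe sets. By that set Eif4e would stand with the genes that rose. A match describes the letters and is not a binding site. These windows are shown because they contrast genes that rose, fell or were uncalled, with CACGTG in capitals: Eif4e (chr3:138527018-138527267, plus strand, the second of its 2 windows, matches starting at -228 and -64 from the start), Eif5a2 (chr3:28781027-28781276, plus strand, -142 and -117), Eif3k (chr7:28981889-28982138, minus strand, -44) and Eif1b (chr9:120492356-120492605, plus strand, -24).
Eif4e: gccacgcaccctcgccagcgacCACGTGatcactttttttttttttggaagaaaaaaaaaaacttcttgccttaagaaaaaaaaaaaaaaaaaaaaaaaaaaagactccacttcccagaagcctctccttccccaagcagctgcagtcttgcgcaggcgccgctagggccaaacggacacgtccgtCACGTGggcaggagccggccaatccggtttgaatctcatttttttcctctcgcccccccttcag
Eif5a2: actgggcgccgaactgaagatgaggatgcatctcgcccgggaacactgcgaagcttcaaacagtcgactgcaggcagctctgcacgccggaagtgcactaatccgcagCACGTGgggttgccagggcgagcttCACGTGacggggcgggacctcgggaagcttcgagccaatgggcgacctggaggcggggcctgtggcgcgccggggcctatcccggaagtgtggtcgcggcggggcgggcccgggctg
Eif3k: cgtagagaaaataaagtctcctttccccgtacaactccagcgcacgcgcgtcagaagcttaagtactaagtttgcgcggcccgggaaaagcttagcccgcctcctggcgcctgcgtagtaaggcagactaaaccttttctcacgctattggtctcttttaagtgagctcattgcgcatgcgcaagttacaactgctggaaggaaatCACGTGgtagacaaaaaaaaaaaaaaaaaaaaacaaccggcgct
Eif1b: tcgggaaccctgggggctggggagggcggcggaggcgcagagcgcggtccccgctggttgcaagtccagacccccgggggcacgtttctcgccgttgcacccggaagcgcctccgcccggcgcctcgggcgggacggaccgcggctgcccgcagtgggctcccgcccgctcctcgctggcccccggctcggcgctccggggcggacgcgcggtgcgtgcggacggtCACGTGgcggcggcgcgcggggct

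None of the 45 genes was called between deficient and control tumors by limma, where 0.818% of all genes were, and 13 of the 45 had an unadjusted p under 0.05, beside 20.2% of all genes. The median difference was 0.04, against -0.01 over all genes. The smallest adjusted p was 0.0936, for Eif4ebp1, with a difference of 0.69 ± 0.18 and a 95% interval of 0.29 to 1.09. Eif4e2 had the largest difference, 0.92 ± 0.30, with an interval of 0.28 to 1.56. For 3 genes the arrays of the groups did not overlap, as for 6.15% of all genes: Eif4enif1 was higher in deficient tumors (0.28 ± 0.11), and Eif1b (-0.34 ± 0.11) and Eif4e1b (-0.51 ± 0.19) were lower. For Eif4a1 the interval ran from -0.27 to 0.22, and for Eif3b from -0.19 to 0.28. For Eif4e3 it ran from -1.21 to 0.91, a width that still holds a 2-fold lower level.

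**Figure D4:**
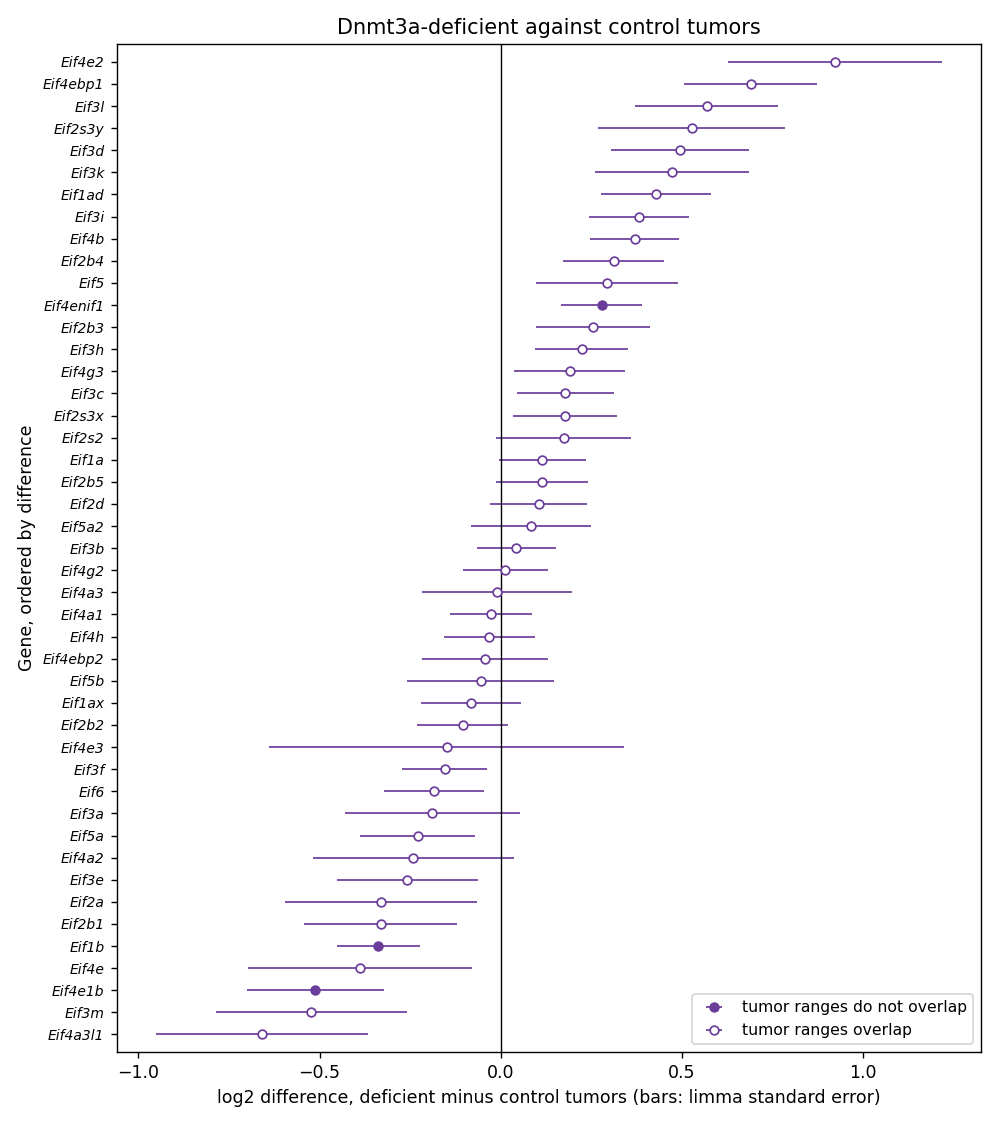
Log2 difference of deficient (n = 4) minus control tumors (n = 5) for the 45 genes in order, with limma standard errors; filled points mark the 3 genes whose arrays do not overlap. No gene was called; values run from -0.66 for Eif4a3l1 to 0.92 for Eif4e2.

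The control tumors themselves were split. For 33 of the 45 genes control tumors 1 and 2 lay both above or both below control tumors 3, 4 and 5, as for 46.6% of all genes. Without those 2 arrays 8 genes were higher and 8 lower in deficient tumors, while 25.3% of all genes were called. Eif4e2 then differed by 1.45 ± 0.15 (adjusted p = 7.48e-05), Eif4ebp1 by 0.90 ± 0.17 (adjusted p = 0.00251) and the Eif4e probe set used by -0.95 ± 0.14 (adjusted p = 0.000527). Eif1ad, Eif3d, Eif3h, Eif3k, Eif3l and Eif4b were the other genes higher, and Eif2b1, Eif3e, Eif3m, Eif4e1b, Eif4a2, Eif4a3l1 and Eif5a the others lower. The 2 arrays were left out because of their values, so these numbers describe the split and do not test the groups. Leaving out control tumor 2 alone gave 5 higher genes, beside 5.71% of all genes higher, and control tumor 1 alone gave 1, beside 4.08%. Normal array 2 was the lowest of the normal arrays for 12 of the 27 genes higher in deficient tumors, and for 31.5% of all genes. Among the 45 genes, normal array 3 was lowest for 20, normal array 2 for 16 and normal array 1 for 9.

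The eIF2 kinases phosphorylate eIF2 and shut initiation under stress. Of 9 measured genes of their list, 2 rose and 2 fell in control tumors, and 3 and 2 in deficient tumors. These small counts stand beside 13.0% higher and 11.3% lower over all genes in control tumors, and 18.7% and 19.0% in deficient tumors, and so do the counts of the stress, mTORC1 and hypusine lists that follow; nothing is read from them about the lists. Impact, an inhibitor of the amino acid sensor kinase, rose by 1.77 ± 0.29 in control tumors and 1.59 ± 0.30 in deficient tumors (adjusted p = 0.000623 and 0.00128). Eif2ak4, that kinase, rose by 0.75 ± 0.21 in control tumors and 1.20 ± 0.22 in deficient tumors (adjusted p = 0.0179 and 0.000904). Eif2ak2, the kinase activated by double-stranded RNA, was 0.36 ± 0.34 in control tumors and 1.36 ± 0.35 in deficient tumors (adjusted p = 0.487 and 0.0087). Of 8 targets of the stress response, 1 rose in each tumor group: Asns, which makes asparagine, by 3.82 ± 0.23 in control tumors and 4.05 ± 0.24 in deficient tumors (adjusted p = 5.83e-07 and 3.33e-07). Atf5 fell in deficient tumors (-0.72 ± 0.18, adjusted p = 0.00708).

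In the list of mTORC1 and the kinases of eIF4E, 2 of 12 measured genes rose and 3 fell in each tumor group. Larp1, an mTOR substrate that binds mRNAs of the translation machinery, rose by 1.02 ± 0.21 in control tumors and 1.69 ± 0.22 in deficient tumors (adjusted p = 0.0032 and 7.5e-05), and Rheb, the activator of mTORC1, by 0.79 ± 0.15 in control tumors and 0.94 ± 0.15 in deficient tumors (adjusted p = 0.00147 and 0.000381). Mknk1, which phosphorylates eIF4E, was -0.89 ± 0.13 in control tumors and -0.94 ± 0.14 in deficient tumors (adjusted p = 0.000284 and 0.00018). Of 13 genes for mRNA end binding, helicases and recycling, 8 rose in control tumors and 7 in deficient tumors, and none fell. Over all genes 13.0% rose and 11.3% fell in control tumors, and 18.7% rose and 19.0% fell in deficient tumors. Abce1, which splits ribosomes for reuse, rose by 3.21 ± 0.35 in control tumors and 3.58 ± 0.37 in deficient tumors (adjusted p = 2.88e-05 and 1.14e-05). Ddx3x, a helicase of structured leaders, rose by 1.53 ± 0.35 in control tumors and 1.20 ± 0.37 in deficient tumors (adjusted p = 0.00574 and 0.0202), and Ncbp2, a nuclear cap-binding subunit, by 1.05 ± 0.18 in control tumors and 1.28 ± 0.19 in deficient tumors (adjusted p = 0.000847 and 0.000184). Of 6 genes around hypusine and its precursor spermidine, 2 rose and 1 fell in both. Srm, spermidine synthase, rose by 1.52 ± 0.15 in control tumors and 2.00 ± 0.16 in deficient tumors (adjusted p = 1.35e-05 and 1.73e-06), and Oaz2, an antizyme that lowers polyamine synthesis, was -1.14 ± 0.30 in control tumors and -1.91 ± 0.31 in deficient tumors (adjusted p = 0.0128 and 0.000392).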

How the data were processed

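Total RNA (200 ng per sample) was labelled and hybridised to 12 arrays. The deposited values are log2 expression per probe set, which the submitters' processing notes credit to RMA run by the authors in Affymetrix Expression Console. No source used here gives the versions or the genome build. Of 23858 probe sets, 20870 had 1 symbol, 1453 several and 1535 none. The brightest single-symbol probe set per gene gave 19309 genes. One limma 3.58.1 model in R 4.3.3 with 3 group means was fitted (9 residual and 4.17 prior degrees of freedom), with two-sided tests and Benjamini-Hochberg adjustment per comparison. No dim gene was removed. The steps were tested on simulated data. The number of arrays limits precision. Genes given with all their values are up to 4 called genes per role with the largest difference, and Eif4e, Eif4a1, Eif4a2, Eif4ebp1, Eif4ebp2, Eif2s2, Eif2b5, Eif3a, Eif5a and Eif6; of each other list up to 3 called genes. The members and lists were chosen with earlier results of these data known. Scaling, filter, probe set choice, array weights, replicate block and left-out arrays were varied. Deviations of same-numbered arrays from their group means correlated from -0.134 to 0.338. The main fit did not pair arrays by number, and these correlations cannot exclude that the samples were paired.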

Additional observations from a re-analysis of the deposited data

Results flagged for a closer look

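Eif3h read 12.1 in deficient tumor 1, away from the other deficient tumors, of which the nearest read 12.32. It was the 1 outlying array among 90 gene and group combinations tested, where chance gives about 5%. Probe sets not used for the 45 genes also differed between control tumors and normal thymocytes in a fit over all probe sets. The other sets of Eif2s2, Eif3m and Eif4e differed by 3.24, 1.82 and 1.61. The 2 sets shared by Eif3j2 and Eif3j1 differed by 2.44 and 2.38, and the set shared by Ankhd1 and Eif4ebp3 by 0.99. The 4 sets shared by Eif1a and similar gene models differed by 1.67, 1.78, 1.17 and 1.77.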

How the results depend on the processing

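The 58 called differences of the tumors from normal thymocytes kept their direction in all 978 alternative values, of which 910 were also called, and 41 were called under every alternative run. Leaving out 1 array gave 19 to 24 genes higher and 2 to 3 lower in control tumors, and 26 to 27 higher and 2 to 4 lower in deficient tumors, with 2 lower without normal array 2. A common 75th percentile gave 4 genes lower in control tumors and 9 in deficient tumors, where 22.9% and 48.0% of all genes were lower, and cyclic loess gave 4 in control tumors, beside 11.2%. Both scalings lowered the higher count in control tumors from 24 to 19, and in deficient tumors from 27 to 20 and 22. Their shares of all genes higher were 10.3% and 12.3% in control tumors, and 13.3% and 16.6% in deficient tumors. Median centring gave 3 lower in deficient tumors, beside 15.7% of all genes. Dropping the dimmest 50% of genes also gave 3 and takes Eif4e1b and Eif4a3l1 out of the fit, and no share was counted there. Between tumor groups, array weights gave 7 higher and 1 lower, beside 11.7% and 5.58% of all genes. Leaving out control tumors 1 and 2 gave 8 and 8, beside 16.1% and 9.24%. Leaving out 1 array gave 0 to 5 higher and 0 lower, beside 0.0570% to 5.71% and 0.0259% to 1.96%. The cause of these changes was not tested. The Eif4e probe set used, in deficient tumors minus normal, turned to -0.261 (common 75th percentile), -0.181 (second quantile normalization) and -0.211 (cyclic loess). In the same comparison Eif4ebp2 ranged from -0.2 to 0.0169 when 1 array was left out, positive without normal array 2. With the replicate block, 23 genes were higher and 2 lower in control tumors, 27 and 5 in deficient tumors, and 0 and 0 between tumor groups. In that order the shares of all genes were 13.6% and 10.3%, 18.6% and 17.3%, and 0.290% and 0.249%. The fit over all probe sets was chosen after seeing the data. Some calls were lost when 1 array was left out, which also lowers the number of arrays in the fit. In control tumors Eif1ad (0.536), Eif3k (0.593) and Eif4ebp1 (0.612) lost the call without normal array 3, with adjusted p = 0.0738, 0.126 and 0.0877, and Eif4g2 (0.452, adjusted p = 0.0547) without normal array 2. Eif3h lost it without any one normal array or without control tumor 1 or 2 (0.377 to 0.464), and Eif5a2 without normal array 1 or 3 or control tumor 1, 2 or 4 (0.473 to 0.54). In deficient tumors Eif3m (0.743, adjusted p = 0.0732) and Eif4a3l1 (-0.822, adjusted p = 0.0971) lost it without normal array 2, and Eif5a2 (0.556, adjusted p = 0.0671) without normal array 3. Eif4e1b lost it without normal array 2 or 3 or any one deficient tumor (-0.641 to -0.468), and Eif4h without normal array 1 or 2 or deficient tumor 1, 2 or 3 (-0.425 to -0.4).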

Other observations

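Factors of later steps rose in part. Of 10 measured elongation and termination genes, 5 rose in each tumor group, and 1 fell in deficient tumors. Over all genes 13.0% rose and 11.3% fell in control tumors, and 18.7% rose and 19.0% fell in deficient tumors. Etf1, which reads stop codons, rose by 2.40 ± 0.18 in control tumors and 2.65 ± 0.18 in deficient tumors (adjusted p = 2.03e-06 and 7.81e-07). Its partner Gspt1 rose by 1.51 ± 0.13 in control tumors and 1.65 ± 0.14 in deficient tumors (adjusted p = 5.98e-06 and 2.56e-06), and Eef1b2, an exchange factor of elongation, by 1.23 ± 0.13 in control tumors and 1.41 ± 0.14 in deficient tumors (adjusted p = 2.42e-05 and 7.36e-06). Eef1a2 was the 1 gene of the list called between tumor groups, where 0.818% of all genes were. It is named for that after its values were seen, and was lower in deficient tumors by limma (-1.04 ± 0.22, adjusted p = 0.0477). Of 9 mitochondrial translation factors, 4 rose in control tumors and 6 in deficient tumors, beside 13.0% and 18.7% of all genes. Mrrf, which recycles mitochondrial ribosomes, rose by 1.35 ± 0.32 in control tumors and 2.11 ± 0.34 in deficient tumors (adjusted p = 0.00732 and 0.000315), and Mtif2, the mitochondrial initiation factor, by 1.21 ± 0.25 in control tumors and 1.82 ± 0.26 in deficient tumors (adjusted p = 0.00281 and 0.000136).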
